A study of Mus musculus with 6 samples.

Results

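Nr4a1, Nr4a2 and Nr4a3, the NR4A group of orphan nuclear receptors, were followed in the cochlear lateral wall of old and young mice. The lateral wall bounds the cochlear duct on its outer side, where the stria vascularis and the underlying spiral ligament keep the fluid around the hair cells rich in potassium. The 3 genes were chosen on the old and young values of these same arrays, so their differences between the ages are given as a description, without a test. All probe sets with the symbol of 1 of these genes as their single platform symbol were taken. That gave 10 of 45037 probe sets: 1 for Nr4a1, 6 for Nr4a2 and 3 for Nr4a3. Tissue came from old adult CBA/CaJ mice of 1.5 years and from young adult mice of the same inbred strain, aged 1 to 3 months, with both sexes in the study and no sex given per sample. Each age had 3 arrays with biotin-labelled RNA, numbered as replicates 1 to 3 in the labels, and the labels name no transgene or treatment in either age. The labels do not say whether a sample held 1 animal or a pool, so the p-values below measure the spread among these samples. Values are log2 signals, a mean is given ± SD over 3 arrays, and a difference is old minus young ± its standard error from limma.

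NR4A proteins are transcription factors of the nuclear receptor superfamily with no established natural ligand, and their activity is set mainly by how much of the protein is made. All 3 genes are immediate early genes: cAMP, calcium, growth factor and stress signals switch them on without new protein synthesis, and their transcripts are short-lived. The proteins bind as monomers to a DNA element called NBRE, and Nr4a1 and Nr4a2 can also pair with retinoid X receptors. In other tissues they take part in steroid synthesis, dopamine neuron identity, glucose production by liver and the control of T cells and monocytes.

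The 3 promoters are shown because they share a sequence feature, and its part in the differences between the ages was not tested. Each window runs from 250 bases before to 50 bases after a transcription start annotated by RefSeq on GRCm38.p6, and is printed 5′ to 3′ on the strand of the gene. Capitals mark TGACG or its reverse complement CGTCA, the core of the cAMP response element (CRE) that CREB binds. The Nr4a1 window is chr15:101266596-101266895 on the plus strand, inside the annotated gene at 101253902 to 101274795, since that gene also has starts further upstream. The Nr4a2 window is chr2:57123954-57124253 on the minus strand, at the 5′ end of the gene at 57106830 to 57124003. The Nr4a3 window is chr4:48045055-48045354 on the plus strand, around a start inside the gene at 48045078 to 48086447.
Nr4a1: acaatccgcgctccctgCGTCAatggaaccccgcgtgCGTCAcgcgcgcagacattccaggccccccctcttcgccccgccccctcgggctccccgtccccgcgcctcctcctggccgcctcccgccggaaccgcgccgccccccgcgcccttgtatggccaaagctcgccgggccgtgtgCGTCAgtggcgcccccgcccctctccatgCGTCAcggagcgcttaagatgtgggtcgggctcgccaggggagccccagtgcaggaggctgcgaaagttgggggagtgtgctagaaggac
Nr4a2: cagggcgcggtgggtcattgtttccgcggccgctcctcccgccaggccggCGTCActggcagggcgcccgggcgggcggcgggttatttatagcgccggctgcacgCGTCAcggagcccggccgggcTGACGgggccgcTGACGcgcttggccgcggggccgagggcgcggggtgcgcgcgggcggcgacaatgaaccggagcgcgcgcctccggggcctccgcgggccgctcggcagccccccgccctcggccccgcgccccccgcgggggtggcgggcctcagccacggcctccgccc
Nr4a3: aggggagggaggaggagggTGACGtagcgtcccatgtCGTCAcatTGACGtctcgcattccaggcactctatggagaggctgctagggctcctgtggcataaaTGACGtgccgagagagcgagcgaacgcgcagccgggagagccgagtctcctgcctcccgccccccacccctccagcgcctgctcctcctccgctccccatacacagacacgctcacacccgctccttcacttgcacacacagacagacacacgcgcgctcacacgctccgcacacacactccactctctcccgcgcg

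Each of the 3 windows held 4 CRE cores. Searched on both strands, at least 4 cores were found in 76 of all 32851 promoter windows, or 0.231%, and at least 1 in 20.8%. The Nr4a windows were rich in G and C, at 72.3% for Nr4a1, 81.7% for Nr4a2 and 64.7% for Nr4a3. Among the 9690 windows with a GC content of 60% or more, 0.557% held at least 4 cores. All cores lay before the start, the nearest at bases -40 to -36 in Nr4a1, -111 to -107 in Nr4a2 and -147 to -143 in Nr4a3. In Nr4a1 all 4 were on the strand opposite the gene, while Nr4a2 and Nr4a3 had cores on both strands. The full palindromic CRE, TGACGTCA, which contains the core on both strands, was in none of the 3 windows and in 1.79% of all windows. The NBRE itself, AAAGGTCA, was in none of them and in 1.51% of all windows, and the CArG box bound by SRF was in none of them and in 1.63% of all windows. These are matches of letters in a short window and say nothing on whether a factor was bound in this tissue.

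**Figure D1:**
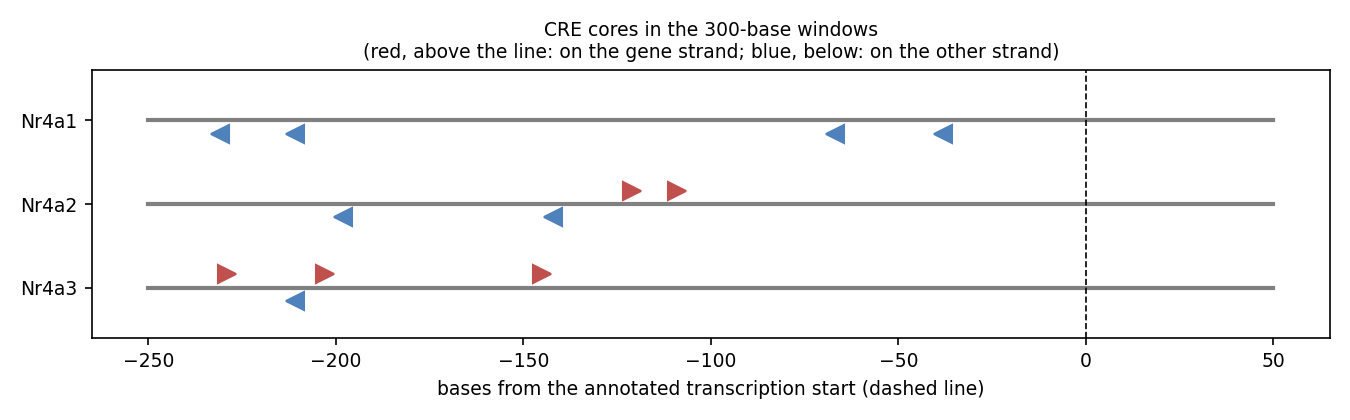
Positions of the 4 CRE cores in each promoter window of Nr4a1, Nr4a2 and Nr4a3, in bases from the annotated transcription start (dashed line), over 250 bases before and 50 bases after it. Red marks above a line are TGACG on the strand of the gene and blue marks below it are on the other strand, and every mark lies left of the start.

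Transcripts of all 3 genes were lower in old lateral wall, by about 5-fold for Nr4a1 and by over 4-fold for 1 probe set of Nr4a3, while the 6 probe sets of Nr4a2 ranged from a clear difference to almost none. Nr4a1 (Nur77), the member best known from T cells, monocytes and steroid-producing cells, has a single probe set, 1416505_at. It read 8.94, 8.86 and 9.24 on old arrays 1 to 3, against 11.74, 11.08 and 11.24 on young arrays 1 to 3. Every old array lay below every young one, and the gap of 1.84 between the highest old and the lowest young array was wider than the range within either age, 0.38 in old and 0.66 in young. Nr4a1 averaged 9.01 ± 0.20 in old and 11.35 ± 0.34 in young tissue (SD, n = 3 each), a difference of -2.34 ± 0.17. Converted from this log2 difference, the old signal was 19.8% of the young one, a 5.06-fold lower signal.

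Nr4a3 (Nor1), the member first studied as a neuron-derived orphan receptor, has 3 probe sets, and 1 of them differed between the ages. Probe set 1438796_at read 6.14, 5.88 and 5.95 on the old arrays, against 8.45, 7.85 and 8.15 on the young arrays. The groups did not overlap, and the gap between them was 1.71. Its means were 5.99 ± 0.13 in old and 8.15 ± 0.30 in young tissue (SD, n = 3 each), a difference of -2.16 ± 0.15, which puts the old signal at 22.4% of the young one. The other 2 probe sets of Nr4a3 overlapped between the ages. Probe set 1421080_at read 6.44, 6.27 and 6.24 in old, against 6.46, 6.23 and 6.07 in young tissue, a difference of 0.06 ± 0.11. Probe set 1421079_at read 4.03, 3.76 and 3.83 in old, against 4.09, 3.83 and 4.06 in young tissue, a difference of -0.12 ± 0.11. These 2 were designed against the same target record in the platform annotation, and 1438796_at against another. The probe set that differed therefore stands alone for its gene, and which part of the transcript each set reads was not analysed here.

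Nr4a2 (Nurr1), the member required for midbrain dopamine neurons, has 6 probe sets, and 5 of them had every old array below every young one. The largest difference was that of 1455034_at, which read 5.39, 6.45 and 6.31 in old, against 8.42, 7.39 and 7.85 in young tissue. Old replicate 1 was the lowest of the 6 arrays here. The means were 6.05 ± 0.58 in old and 7.89 ± 0.52 in young tissue (SD, n = 3 each), a difference of -1.84 ± 0.31. Probe set 1447863_s_at, the brightest, read 6.38, 6.39 and 6.33 in old, against 8.30, 6.99 and 7.54 in young tissue. The old arrays were nearly identical, while the young arrays spread over 1.31 log2 units. The difference was -1.24 ± 0.27, with the old signal at 42.2% of the young one. In Affymetrix naming the ending _s_at marks probes that can match transcripts of different genes, so this set may not read Nr4a2 alone.

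The remaining Nr4a2 probe sets split by target record. Both sets made against 1 shared record had every old array below every young one. Of these, 1450750_a_at read 5.74, 5.63 and 5.64 in old, against 6.78, 6.12 and 6.26 in young tissue, a difference of -0.72 ± 0.16. Its partner 1450749_a_at read 5.86, 5.97 and 5.88 in old, against 6.35, 6.20 and 6.32 in young tissue, a difference of -0.39 ± 0.08. Both sets made against another shared record were close to level. Probe set 1433423_at overlapped between the ages, at 6.22, 6.36 and 5.95 in old, against 6.19, 6.34 and 6.44 in young tissue (-0.15 ± 0.12). Probe set 1433422_at read 5.26, 5.13 and 5.15 in old, against 5.33, 5.27 and 5.32 in young tissue, with groups separated by 0.01 and a difference of -0.13 ± 0.08. Sets that share a record are not independent readings of the gene. When each gene was taken as the mean of its sets, the difference was -0.74 for Nr4a2 and -0.74 for Nr4a3.

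**Figure D2:**
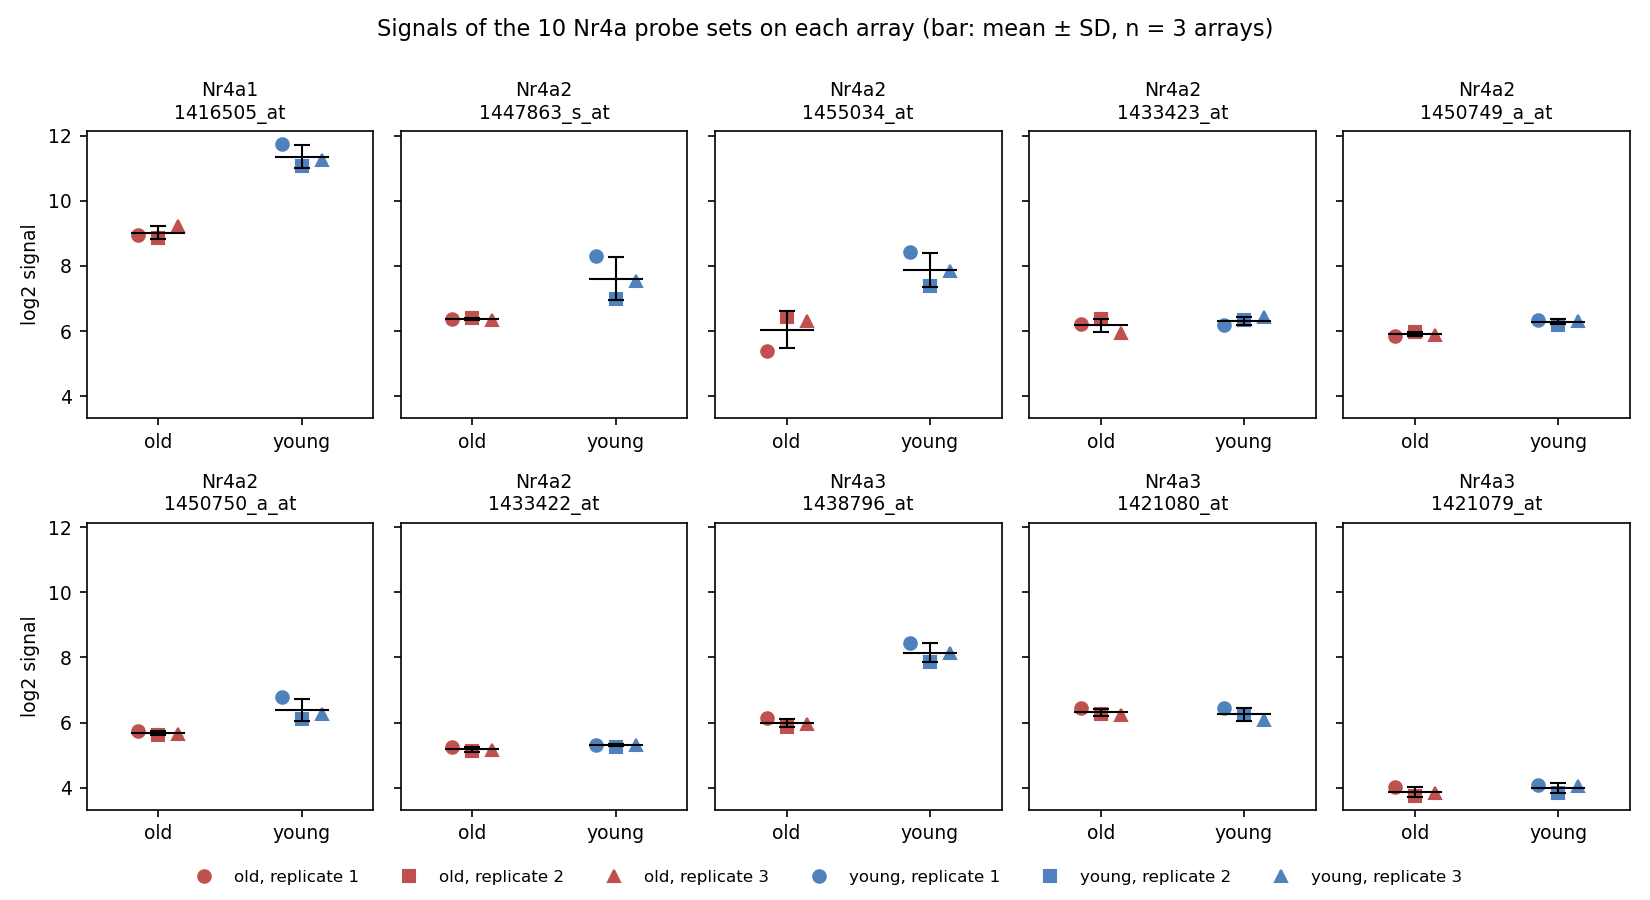
Log2 signal (vertical axis) of each of the 10 probe sets on every array, old left of young, with symbols for replicates 1 to 3 and a bar for the mean ± SD (n = 3 arrays). Nr4a1 1416505_at, Nr4a2 1455034_at and Nr4a3 1438796_at show old arrays well below young arrays, while Nr4a3 1421080_at and 1421079_at overlap.

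**Figure D3:**
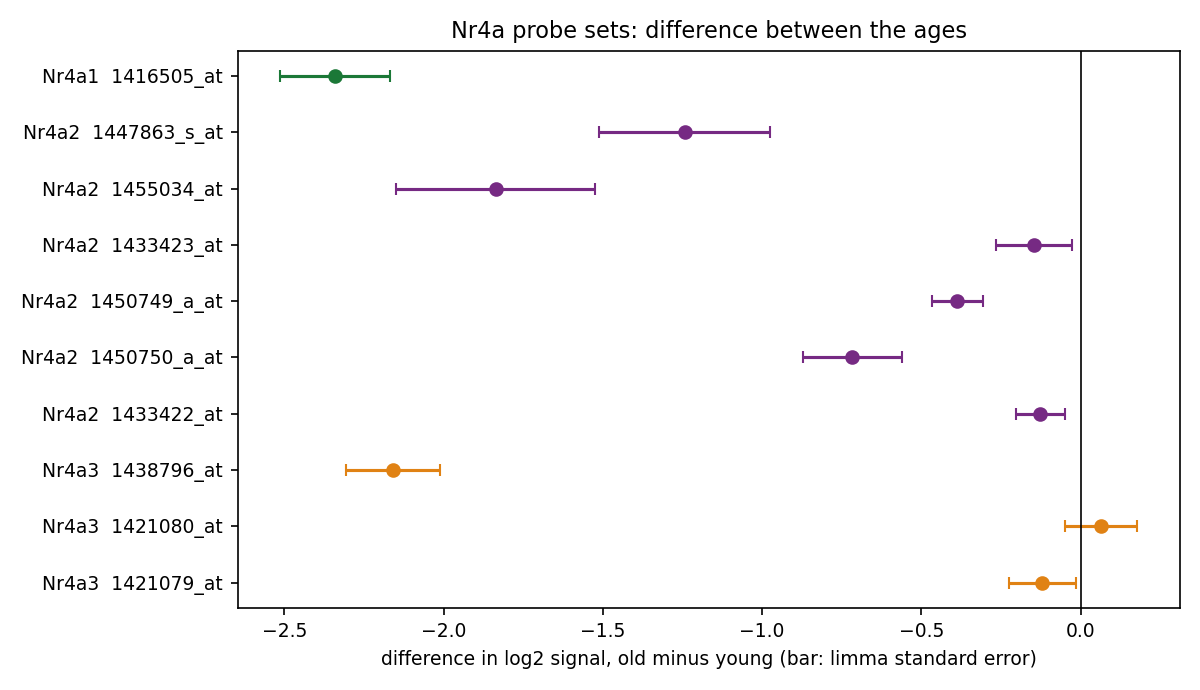
Difference in log2 signal between old and young arrays (horizontal axis, old minus young) for the 10 probe sets, with the limma standard error as a bar. Values run from -2.34 for Nr4a1 to 0.06 for Nr4a3 1421080_at, and the 6 probe sets of Nr4a2 from -1.84 to -0.13.

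Of the 10 probe sets, 6 had a limma adjusted p under 0.05 and were lower in old tissue, where 2.84% of all 45037 probe sets were, and 0 were higher. Non-overlapping groups with old below young were seen in 7 of 10, where 11.3% of all probe sets had them. Since the genes were chosen on this comparison, nothing is read from either count. In their brighter group 8 of the 10 exceeded 6.28, the median of the whole table, and the others were Nr4a2 1433422_at and Nr4a3 1421079_at. In old tissue only Nr4a1 1416505_at, Nr4a2 1447863_s_at and Nr4a3 1421080_at had means above that median, at 9.01, 6.37 and 6.32. All other old means lay under it, among them those of the other probe sets that were called. The young means of Nr4a2 1450749_a_at, 1433423_at and 1450750_a_at were close to it, at 6.29, 6.32 and 6.39. No detection call was used here, so how far the low readings reflect transcript is unknown.

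The spread among young arrays followed 1 order in the called sets. In all 6 probe sets that were called, young replicate 1 was the highest young array and young replicate 2 the lowest. Of these 6, 4 were sets of Nr4a2. Among the other 4 member sets, 2 had this order. That order held for 443 of 1281 probe sets called lower in old tissue, or 34.6%, and for 22.3% of all probe sets. Relative to the young mean, young replicate 1 stood at 0.39 for Nr4a1, 0.69 for Nr4a2 1447863_s_at and 0.30 for Nr4a3 1438796_at, and young replicate 2 at -0.27, -0.62 and -0.30. Of 28 other immediate early genes, 14 had this order. Of the 28, 26 were above their young mean on young replicate 1, 3 on young replicate 2 and 14 on young replicate 3. Old arrays lay within 0.23 of their age mean for the brightest probe set of each gene. Young replicate 2 also differed in Xist, which is transcribed from the inactive X, at 6.06 against 11.95 to 12.65 on the other 5 arrays. The Y-linked gene Eif2s3y read 10.46 on young replicate 2 and 8.97 to 9.71 on the other 5 arrays, and whether those samples held both sexes was not tested. Young replicate 2 was the lowest young array in every called set, so leaving it out had to enlarge their differences. The differences were then -2.48 for Nr4a1, -1.55 for Nr4a2 1447863_s_at, -2.09 for Nr4a2 1455034_at and -2.31 for Nr4a3 1438796_at. Nothing is read from this increase.

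Several cell type markers moved with age beside these genes. All 14 lateral wall markers had signal, among them Kcnj10 of strial intermediate cells and Coch of spiral ligament fibrocytes. Of these, 0 passed limma with Benjamini-Hochberg adjustment over all probe sets. Their linear signals were summed on each array, and the log2 of that sum was 17.11 in old and 17.10 to 17.12 in young arrays. The sums below were made in the same way, so the brightest markers of a list weigh most in them. Of 8 marrow myeloid markers 7 were lower in old tissue, with sums of 9.54 to 10.57 in old and 11.14 to 11.80 in young arrays. Of 5 bone markers 3 were lower, with sums of 11.26 to 11.64 in old and 12.41 to 12.69 in young arrays. Of 8 macrophage markers 2, Lyz2 and Cd68, were higher, with sums of 12.81 to 12.96 in old and 12.00 to 12.20 in young arrays. Of 4 muscle markers 1, Acta2, was lower, with sums of 9.35 to 9.52 in old and 9.89 to 10.17 in young arrays, and 0 of 4 sensory cell markers and 0 of the 1 measured myelin marker passed. Of 5 endothelial markers 0 passed, with sums of 11.47 to 11.76 in old and 11.67 to 11.75 in young arrays, and of 4 lymphoid markers only Cd3g, of the T cell receptor complex, passed, higher in old tissue at 5.35 ± 0.17 against 3.94 ± 0.08 in young (SD, n = 3 each). None of these lists had a marker at 0, since a log2 array signal has no true zero. For the Gapdh controls, the signal at the 3′ end exceeded that at the 5′ end by 1.26 to 1.45 in old and 1.07 to 1.25 in young arrays (exact 2-sided permutation p = 0.1, the smallest that 3 against 3 can give). For Actb it was 1.39 to 1.84 in old and 1.46 to 1.60 in young arrays, which overlapped (exact 2-sided permutation p = 0.4). Their part in the Nr4a differences was not tested. In tissue RNA, fewer cells of a type and less RNA per cell cannot be told apart.

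Upstream of NR4A genes, the cAMP and CREB genes were mostly level between the ages. Of 20 measured genes 1 was lower in old tissue and 0 higher, with a median difference of -0.08. Over all 18193 genes, each at its brightest probe set, 2.33% were lower and 2.45% higher, and the median was 0.03. The gene that fell was Sik1, a kinase that holds back CREB coactivators and is itself switched on by CREB. Sik1 was at 7.99 ± 0.40 in old and 9.69 ± 0.41 in young tissue (SD, n = 3 each), a difference of -1.70 ± 0.24 (limma adjusted p = 0.00797). Its adjusted p was 0.0505 without young replicate 3. Creb1 itself, the factor that binds the CRE, was at 10.41 ± 0.09 in old and 10.48 ± 0.13 in young tissue (limma adjusted p = 0.756). The kinase subunits, CREB coactivators and cAMP phosphodiesterases of this list did not pass.

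The MAPK, SRF and MEF2 genes, a second route to NR4A transcription, gave 1 gene lower in old tissue and 0 higher of 26 measured, with a median difference of -0.03. Srf, the serum response factor, was at 8.32 ± 0.05 in old and 8.25 ± 0.10 in young tissue (limma adjusted p = 0.711). Mef2d, a factor that drives Nr4a1 in T cells, read 9.68, 9.82 and 9.89 in old, against 10.37, 10.15 and 10.29 in young tissue. The groups did not overlap, and the difference was -0.47 ± 0.09 (limma adjusted p = 0.0292). Leaving out any array except young replicate 2 ended the call, with an adjusted p of up to 0.107, as did the mean of its 3 sets, at -0.10 (limma adjusted p = 0.450). The brightest probe sets of Mef2a and Mef2c did not pass, at 0.00 ± 0.07 and 0.38 ± 0.11 (limma adjusted p = 0.990 and 0.0928).

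The MEF2 genes also had probe sets that disagreed, and the sets given here were picked once their values were known. Of 14 probe sets of Mef2a, Mef2c and Mef2d, 6 were lower in old tissue and 0 higher, where 2.84% of all 45037 probe sets were lower. Several sets of 1 gene are counted separately here, and nothing is read from this count. For Mef2a 3 of 6 were lower, the clearest being 1452347_at at 9.99, 10.08 and 9.95 in old, against 10.58, 10.50 and 10.55 in young tissue. Its difference was -0.54 ± 0.08 (limma adjusted p = 0.00942, and 0.0600 without old replicate 3). For Mef2c 2 of 5 were lower, with differences of -0.68 ± 0.13 for 1421027_a_at and -0.54 ± 0.13 for 1421028_a_at (limma adjusted p = 0.0240 and 0.0470). Both lost the call without old replicate 1, old replicate 3, young replicate 1 or young replicate 3, with adjusted p of up to 0.104 and 0.172. As in Nr4a2 and Nr4a3, the reading for a MEF2 gene depended on the probe set.

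Partners and cofactors of NR4A proteins did not differ past the threshold: 0 of 12 measured genes had a limma adjusted p under 0.05, 2 had an unadjusted p under 0.05, and the median difference was 0.07. The retinoid X receptors, which pair with Nr4a1 and Nr4a2, were at 8.22 ± 0.06 in old and 8.23 ± 0.12 in young tissue for Rxra, and at 10.15 ± 0.07 in old and 10.09 ± 0.12 in young tissue for Rxrb (SD, n = 3 each). Rxrg read 6.23, 6.35 and 6.07 in old, against 5.77, 6.09 and 6.13 in young tissue (limma adjusted p = 0.374). The smallest p were those of Rcor1, a corepressor scaffold that works with Nr4a2 in microglia, at 0.23 ± 0.09, and of Bcl2, the survival protein that Nr4a1 can bind, at 0.24 ± 0.10 (limma adjusted p = 0.182 and 0.223).

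Genes reported as NR4A targets in other tissues were largely not past the threshold here. Of 18 measured genes 2 were lower and 0 higher, with a median difference of 0.02, and 10 of the 18 were no brighter than the table's median in either age. Klf2, a factor of quiescent endothelium and monocytes, was at 8.45 ± 0.24 in old and 9.15 ± 0.03 in young tissue, a difference of -0.70 ± 0.12 (limma adjusted p = 0.0161). Lpin1, a phosphatidate phosphatase of lipid synthesis, was at 9.85 ± 0.09 in old and 10.22 ± 0.06 in young tissue, a difference of -0.37 ± 0.08 (limma adjusted p = 0.0431). Klf2 lost its call without young replicate 1 or young replicate 3, with an adjusted p of up to 0.0699, and Lpin1 without any array except young replicate 2, up to 0.135. The dopamine genes Th, Slc6a3 and Slc18a2 had differences of 0.01, 0.08 and 0.12, and the glucose production genes G6pc and Fbp1 of 0.14 and 0.12, and none of these passed. Th, Slc6a3, Slc18a2 and G6pc were dim, with means of 3.34 to 5.13, under the table's median in both ages.

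Among the other 41 measured nuclear receptors, 2 were lower and 1 higher in old tissue, with a median difference of 0.02. Nr1d1 (Rev-erb alpha), a repressor of the circadian clock, was at 7.73 ± 0.20 in old and 9.10 ± 0.74 in young tissue, a difference of -1.38 ± 0.31 (limma adjusted p = 0.0441). Ppara, which drives fatty acid oxidation, was at 7.96 ± 0.18 in old and 8.43 ± 0.01 in young tissue (limma adjusted p = 0.0384). Rarg, a retinoic acid receptor, was at 8.59 ± 0.13 in old and 8.19 ± 0.04 in young tissue (limma adjusted p = 0.0451). The second probe set of Rarg had a difference of -0.12, and the mean of its sets was 0.14 (limma adjusted p = 0.242), which ended the call. The mean of the Ppara sets was -0.34 and also missed the threshold (limma adjusted p = 0.055). Each of these calls ended on leaving out any array but 1, which was young replicate 2 for Nr1d1, old replicate 2 for Ppara and old replicate 1 for Rarg, with adjusted p of up to 0.128, 0.132 and 0.189. The glucocorticoid receptor Nr3c1 read 10.49 ± 0.06 in old and 10.44 ± 0.08 in young tissue (limma adjusted p = 0.825). Among the Nr4a genes, the brightest probe sets of Nr4a1 and Nr4a3 differed by -2.34 and -2.16, and that of Nr4a2 by -1.24, while the differences of the other receptors ran from -1.38 to 0.66. Only Nr1d1 lay below the brightest set of Nr4a2, and the next lowest of the other receptors was Ppara, at -0.47. Nr4a2 1455034_at, at -1.84, lay outside the range. As the mean of their sets, Nr4a2 and Nr4a3 lay between Nr1d1 and Ppara, although the range is one of brightest sets. No test was made of this.

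Other immediate early genes were lower as well: of 28 measured genes 14 were lower and 1 higher in old tissue, with a median difference of -0.97. Without young replicate 3 the list had 7 lower genes and 0 higher. Fos, a subunit of the AP-1 factor, was at 7.52 ± 0.21 in old and 10.33 ± 0.45 in young tissue (limma adjusted p = 0.000985). Fosl2, another AP-1 subunit, differed by -2.39 ± 0.20 at its brightest probe set (limma adjusted p = 0.00144) and by 0.03 at its other one (limma adjusted p = 0.928). Ier5, a regulator of heat shock factor, was at 7.53 ± 0.16 in old and 6.84 ± 0.18 in young tissue (limma adjusted p = 0.0181), and it lost the call without old replicate 2, old replicate 3, young replicate 1 or young replicate 3, up to 0.0755. The other 2 probe sets of Ier5 had differences of -0.03 and 0.09, and the mean of its sets was 0.25 (limma adjusted p = 0.141), which ended the call. For Fosl2 that mean was -1.18 (limma adjusted p = 0.00347).

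**Figure D4:**
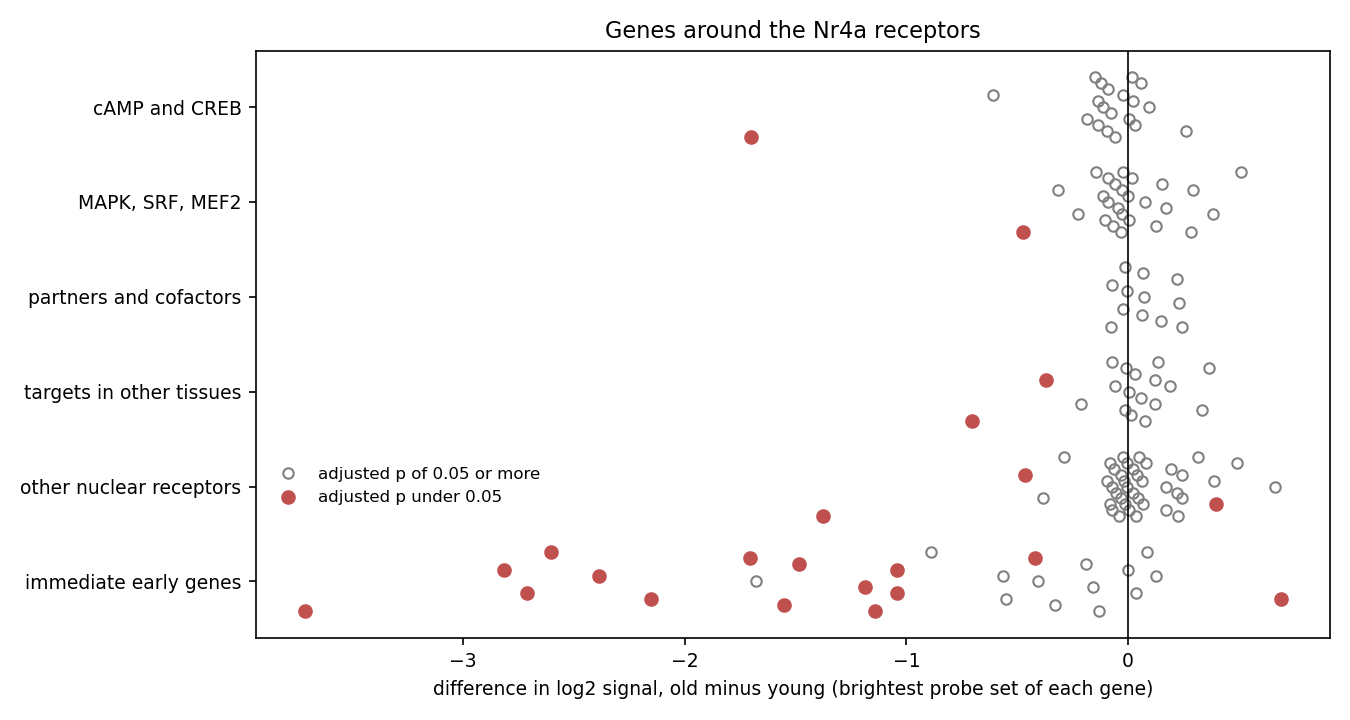
Difference in log2 signal (horizontal axis, old minus young) of every measured gene in 6 lists around the Nr4a receptors, at the brightest probe set of each gene. Filled points had a limma adjusted p under 0.05, namely 1 of 20 cAMP and CREB genes, 1 of 26 MAPK, SRF and MEF2 genes, 0 of 12 partners, 2 of 18 targets, 3 of 41 other nuclear receptors and 15 of 28 immediate early genes.

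Profiles over the 6 arrays were compared by the root-mean-square difference in log2 signal after each was centred on its own mean, among 11778 genes brighter than the median. The measure is a description, and it is dominated by the step between the ages. Nr4a1 and Nr4a3 1438796_at differed from each other by 0.18, while Nr4a2 1447863_s_at differed by 0.60 from Nr4a1 and by 0.51 from Nr4a3. Fosl2 had the closest profile to both Nr4a1, at 0.16, and Nr4a3, at 0.19. Fosl2 read 7.39, 7.49 and 7.47 in old, against 10.31, 9.36 and 9.84 in young tissue. The next closest to Nr4a1 were Maff, Arrdc2, Fkbp5 and Slc10a6, at 0.27 to 0.30, and those to Nr4a3 were Slc10a6, Fkbp5, Ddit4 and Slc39a14, at 0.22 to 0.31. Slc10a6 is a transporter of sulfated steroids, Ddit4 an inhibitor of mTORC1 and Slc39a14 a zinc and iron importer. Nr4a2 1447863_s_at, which may not read Nr4a2 alone, differed by 0.46 from Nr4a2 1455034_at, whose neighbours were not sought. The neighbours of 1447863_s_at were other genes. Apold1, an early response gene of endothelium, was closest at 0.11, and read 8.21, 8.11 and 8.28 in old, against 10.02, 8.87 and 9.17 in young tissue. Plk3, Nuak2, Btg2 and Nup214 followed at 0.15 to 0.19. Like Nr4a2 1447863_s_at, these had young replicate 2 nearest to the old arrays, as did Nr4a1, Nr4a3 1438796_at and Fosl2.

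**Figure D5:**
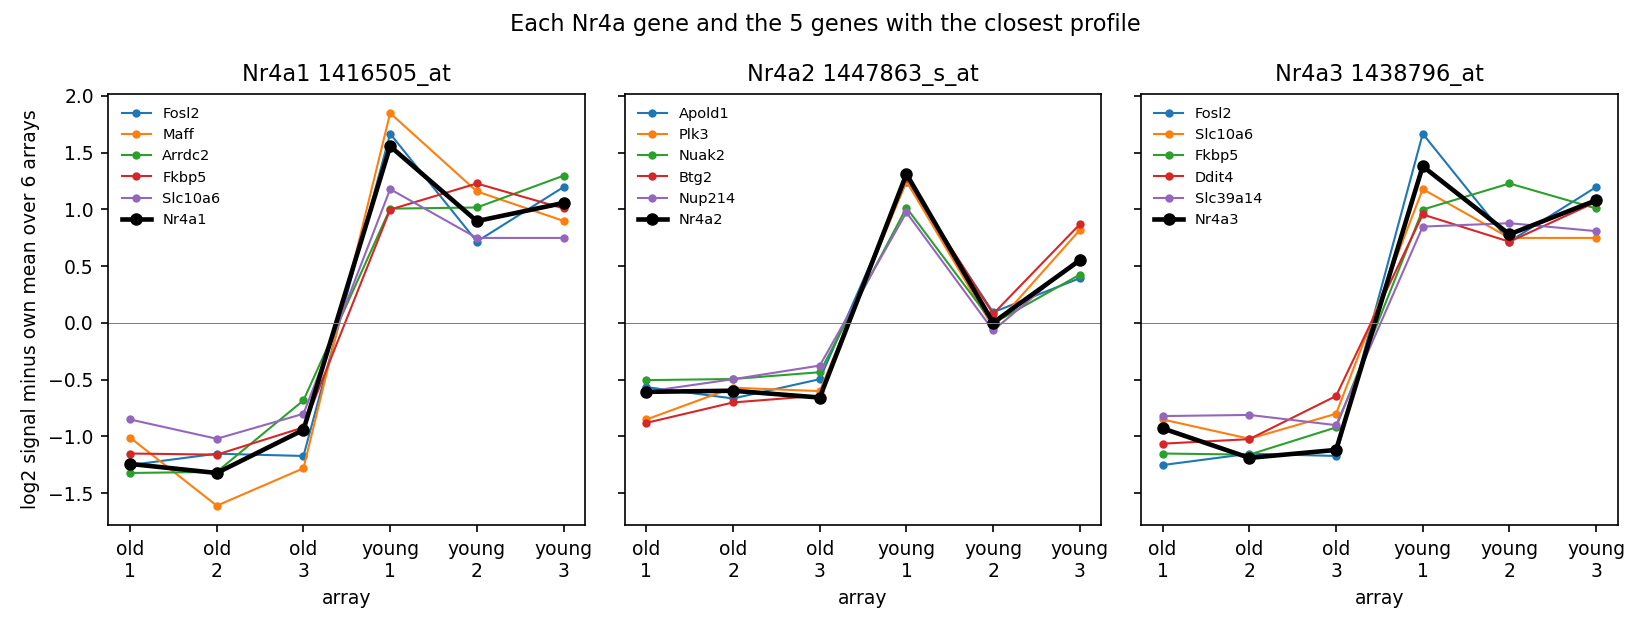
Log2 signal minus the mean over 6 arrays (vertical axis) for the brightest probe set of each Nr4a gene (black) and the 5 genes with the closest profile (colours), on old arrays 1 to 3 and then young arrays 1 to 3. The panels of Nr4a1 and Nr4a3 share Fosl2, Fkbp5 and Slc10a6, and in the Nr4a2 panel young replicate 2 lies near 0 between the old arrays and the other young arrays.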

How the data were processed

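Lateral wall RNA was labelled with an Affymetrix 3′ IVT Express kit and hybridised to 1 array per sample, per the labels' protocols. The authors deposited log2 signals with 2 decimals for 45101 probe sets on 6 arrays, and RMA, MAS5 and the Affymetrix Expression Console are listed in the submitters' processing notes, with roles and versions not given in the sources used here. Array medians were 6.26 to 6.30, so a shift common to most genes would not be seen. Scanner files were not used here, and the number of arrays limits the precision.

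After 64 control probe sets were left out, the ages were compared in R 4.3.3 by the moderated test of limma 3.58.1 with no covariate, and each p was adjusted by Benjamini-Hochberg over 45037 probe sets at a threshold of 0.05. The fit was tested on simulated data. GEO's platform annotation gave 1 symbol to 34945 probe sets, several to 932 and none to 9160. In gene lists a gene stands at its brightest probe set. The members and lists were chosen with earlier results of these data known. Genes were named by a rule: up to 4 called genes per list (2 per direction by smallest p, or 4 where only 1 direction had calls), or 2 where none was called, plus retinoid X receptors, Creb1, Srf and MEF2 genes, and the 5 closest profiles per member. A few genes outside the rule were named after their values were seen: Nr3c1, Kcnj10, Coch, Lyz2, Cd68, Cd3g, Acta2, Crem, Th, Slc6a3, Slc18a2, G6pc, Fbp1, Xist and Eif2s3y. Deviations from the age mean were correlated across probe sets at 0.14, 0.08 and 0.01 for same-numbered arrays, and at -0.11 to 0.07 for differently numbered ones. Replicate numbers were not taken as pairs in the main fit. Alternatives were other normalizations, a filter on dim probe sets, other variance models, array weights, a block for the replicate number, a stricter threshold, genes as the mean of their sets, and leaving out each array. Promoters are RefSeq windows on GRCm38.p6, and all 3 members matched by symbol.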

Additional observations from a re-analysis of the deposited data

How the results depend on the processing

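The Nr4a genes were chosen on this comparison, so how often their sets were called is a description and no support. Nr4a1 and Nr4a3 1438796_at were called lower in old tissue in 14 of 14 settings, Nr4a2 1447863_s_at in 10 of 14, 1455034_at in 11 of 14, 1450750_a_at in 9 of 13 and 1450749_a_at in 6 of 13. Genes as the mean of their sets were not among the settings counted here. Leaving out single arrays gave -2.48 to -2.15 for Nr4a1, -1.55 to -0.90 for Nr4a2 1447863_s_at, -2.09 to -1.51 for 1455034_at, -0.85 to -0.52 for 1450750_a_at, -0.43 to -0.36 for 1450749_a_at, -0.24 to -0.03 for 1433423_at, -0.17 to -0.10 for 1433422_at, -2.31 to -2.01 for Nr4a3 1438796_at, -0.03 to 0.17 for 1421080_at and -0.20 to -0.06 for 1421079_at. Taking genes as the mean of their sets gave -0.74 for both Nr4a2 and Nr4a3, and turned Mef2a to -0.29 (limma adjusted p = 0.0384), as that mean includes sets that differ, and Mef2c, which was not called, to -0.32 (limma adjusted p = 0.08).

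Over the whole table, 2119 probe sets were called, 4480 with array weights, 436 at an adjusted p of 0.01, and 515 to 3393 on leaving out single arrays, the lowest without old replicate 3 and the highest without young replicate 2. Adjusted over genes, 885 genes were called, 1999 with array weights, 213 at 0.01, and 244 to 1636 without single arrays. Other nuclear receptors gave 3 calls, 6 with array weights, 5 with an intensity trend and robust variance, 1 with the mean of sets, and 0 to 2 without single arrays. The cAMP and CREB list gave 1 call, 2 with array weights, cyclic loess, the intensity trend, median centring, repeated quantile normalization, the replicate block or the filter on dim sets, and 1 to 1 without single arrays. The MAPK, SRF and MEF2 list gave 1 call, which was lower in old tissue. It gave 6 with array weights (4 higher and 2 lower), 2 with the intensity trend (1 higher and 1 lower), 1 with the replicate block (higher), and 0 to 2 without single arrays. Partners gave 0 to 0, reported targets 0 to 3 and immediate early genes 7 to 19 without single arrays. With the replicate block, targets gave 1 call in place of 2, 1932 probe sets were called, and Lpin1, Rarg and Mef2d lost theirs (limma adjusted p = 0.0618, 0.0589 and 0.0504). The causes were not tested. Only 3 arrays per age and signals near the low end of the range limit what can be seen for the dim sets.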

Other observations

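CRE cores were also counted in promoters of the other lists. Among immediate early genes with a RefSeq window, 14 of 22, or 63.6%, held at least 1 core, against 23% of 27025 genes. The full CRE was in 3 of these 22, namely Dusp1, Maff and Btg2, against 2.03% of all genes. Of the 11 immediate early genes with a window that were lower in old tissue by limma, 6 held a core. Among cAMP and CREB genes 9 of 16, among reported target genes 6 of 15 and among other nuclear receptors 11 of 37 held a core. The NBRE was in 0 of the 15 windows of reported target genes and in 1.7% of all genes. These counts were made after the promoters of the Nr4a genes had been seen, windows rich in G and C hold more cores, and no test was made.

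Crem, a CREB relative with its own cAMP-induced repressor form, was at 7.92 ± 0.11 in old and 8.53 ± 0.30 in young tissue (SD, n = 3 each), a difference of -0.61 ± 0.14 that did not pass (limma adjusted p = 0.0505). It was singled out after its value was seen. The second probe set of Sik1 had a difference of -1.42 ± 0.35 that did not pass (limma adjusted p = 0.0579).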
